A study of Mus musculus with 8 samples.

Results

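The genes described here are 44 cell cycle and proliferation genes, 44 of the 24552 genes in the deposited count table of a calorie restriction (CR) study of the lacrimal gland (LG). They were taken by symbol as known genes of the cell cycle, by a rule that uses no measured value though results of these data were known when it was written, and all 44 were found in the table. The LGs came from female C57BL/6J mice, the common inbred laboratory strain, and neither group is labelled with a transgene or deletion. Of 8 mice, 4 ate ad libitum (AL) and 4 were placed on a 40% CR at 6 to 7 months of age, and all were killed after 4 months of diet, at 10 to 11 months of age. Each mouse gave 1 library of whole gland RNA, so every p-value rests on 4 mice against 4. The labels give neither the housing site nor the time of day at which the glands were taken, so the part of these in any difference was not tested. Libraries are named by diet and replicate number.

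A cell that starts to divide first makes D cyclins, which switch on the kinases Cdk4 and Cdk6, and these phosphorylate the retinoblastoma protein and free the E2F transcription factors. E2F factors turn on the genes for DNA replication in S phase, and a later wave of genes for mitosis follows in G2, driven by cyclins A and B with Cdk1 and ended by the anaphase promoting complex (APC/C), which marks mitotic proteins for destruction. CDK inhibitors hold the kinases back in resting cells. The acinar cells that make up most of an adult LG seldom divide, and the gland also holds ducts, myoepithelial cells, fibroblasts, vessels and leukocytes, any of which can contribute dividing cells to a whole gland library. In such libraries, fewer cells of a type and less RNA per cell cannot be told apart.

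Promoters of G2 and mitosis genes often carry a cell cycle homology region (CHR) element, and those of S phase genes often carry E2F sites. Promoters are shown for Top2a and Mki67, which had the lowest fold changes of the members tested, for Cdk1, the kinase of mitosis, and for Mcm3, a replication gene whose diets did not overlap. Each runs 5′ to 3′ from 250 bases before to 50 bases after a RefSeq start site on GRCm38.p6, and capitals mark matches to 4 motifs searched on both strands. The motifs were the CHR element TTTGAA, the CCAAT box that binds NF-Y, the E2F site TTTNGCGC and the cyclic AMP response element TGACGTCA.
Top2a, chr11:99024140-99024439, minus strand: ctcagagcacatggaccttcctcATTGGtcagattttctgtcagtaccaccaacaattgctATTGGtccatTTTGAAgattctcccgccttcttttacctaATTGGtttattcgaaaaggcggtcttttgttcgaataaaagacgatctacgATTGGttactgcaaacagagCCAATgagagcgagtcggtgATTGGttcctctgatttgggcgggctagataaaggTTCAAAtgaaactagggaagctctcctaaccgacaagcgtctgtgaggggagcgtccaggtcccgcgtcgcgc
Mki67, chr7:135716330-135716629, minus strand: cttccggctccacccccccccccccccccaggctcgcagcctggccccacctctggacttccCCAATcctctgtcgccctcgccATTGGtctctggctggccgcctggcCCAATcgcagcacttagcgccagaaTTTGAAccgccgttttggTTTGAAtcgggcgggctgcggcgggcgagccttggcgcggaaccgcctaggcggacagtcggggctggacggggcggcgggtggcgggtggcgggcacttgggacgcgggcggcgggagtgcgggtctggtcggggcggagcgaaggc
Cdk1, chr10:69352863-69353162, minus strand: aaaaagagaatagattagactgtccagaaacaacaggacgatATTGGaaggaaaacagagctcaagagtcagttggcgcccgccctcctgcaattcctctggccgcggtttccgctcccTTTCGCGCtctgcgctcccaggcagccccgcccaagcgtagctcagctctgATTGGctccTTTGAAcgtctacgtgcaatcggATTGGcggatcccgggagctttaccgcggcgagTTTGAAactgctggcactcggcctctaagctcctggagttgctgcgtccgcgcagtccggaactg
Mcm3, chr1:20820263-20820562, minus strand: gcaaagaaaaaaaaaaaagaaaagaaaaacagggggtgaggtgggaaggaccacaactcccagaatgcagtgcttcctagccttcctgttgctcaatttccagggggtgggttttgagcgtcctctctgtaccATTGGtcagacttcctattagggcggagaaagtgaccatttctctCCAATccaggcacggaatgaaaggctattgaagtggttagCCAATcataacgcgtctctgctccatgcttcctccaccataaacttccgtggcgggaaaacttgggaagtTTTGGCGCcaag

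Top2a held 2 CHR matches, starting 179 and 23 bases before the start site, and 6 CCAAT matches. Mki67 held 2 CHR matches, 116 and 98 bases before the start site, and Cdk1 held 2, at 71 and 15 bases, together with an E2F match 131 bases before it. Mcm3 held no CHR match, 3 CCAAT matches and an E2F match 38 bases after the start site. The motifs did not overlap each other in these windows. Of the members, 33 matched the RefSeq table, with 37 start sites between them, and Ccna2, Tpx2, Aurkb, Kif20a, Gins2, Mcm4, Ccne2, Ccnd1, Ccnd2, Cdkn1c and Stmn1 did not. A CHR match was found in 9 of 13 promoters of the mitosis genes (69.2%), in 1 of 12 promoters of the S phase genes (8.3%) and in 17.9% of all 32851 promoters of that length. The E2F letters were found in 1 of 13 mitosis promoters (7.7%), in 4 of 12 S phase promoters (33.3%) and in 1.4% of all. CCAAT was common to both groups, with 12 of 13 (92.3%) and 9 of 12 (75%), against 37.4% of all promoters, and the cyclic AMP response element was in 1 of each, against 1.8%. A match is a run of letters and was not tested as a binding site.

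The libraries were made from the 3′ ends of transcripts, and levels are given as CPM, counts scaled to a common library size with relative log expression (RLE) factors. A transcript gives reads near its end whatever its length, so CPM values were not divided by length. Totals ranged from 12051881 to 22156511 counts, and 3 counts, taken as the floor, equal 0.152 to 0.231 CPM. No molecular identifiers are mentioned in the processing described, so this floor covers counting error only. All 7 lacrimal gland markers, among them Pax6, were detected in every library. Sox10 was called higher in CR (log2 fold change 2.13, edgeR adjusted p = 0.00746), and of the 6 not called Barx2 (1.53) and Car6 (1.68) had the highest and Ltf (-1.16) and Pax6 (-0.68) the lowest log2 fold changes. Transcripts of the parotid, a neighbouring salivary gland, were also present. The summed CPM of 6 parotid markers was 23502, 12715, 9852 and 237 in the 4 AL libraries, in the order of their replicate numbers, and 211283, 230419, 183591 and 17896 in the CR libraries. Replicate 4 was thus the lowest of both diets, and values without CR replicate 4 are given where leaving it out changed a call. All 6 parotid markers had a positive fold change, and 3 were called higher in CR.

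Of the 44 genes, 34 were counted often enough to be tested. Differences were tested by the quasi-likelihood test of edgeR, adjusted by Benjamini-Hochberg over all 11211 genes tested, and calls needed an adjusted p below 0.05 together with a change of 1.5-fold or more. By that rule 2 members fell in CR, the cyclin gene Ccnd1 and the topoisomerase gene Top2a, and none rose. Over all genes, 134 were higher (1.2%) and 88 lower (0.785%) in CR. At an unadjusted p under 0.05, 3 members were higher and 13 lower in CR, together 16 of 34, where 8.62% of all genes were higher and 8.1% lower, together 16.7%. Of the 34, 28 had a negative and 6 a positive log2 fold change, with a median of -0.87 against 0.011 for all genes tested. Of the 34, 9 reached the level of the filter in all AL but not all CR libraries and 2 the reverse, and for the 20 with at least 10 counts in every library the median was -0.50. The lowest CR library exceeded the highest AL library in 2 members, Ccnd3 and Cdkn2c, as in 4.58% of all genes, and CR was below AL without overlap in 5 members, Ccnd1, Ccnd2, Top2a, Mki67 and Mcm3, as in 5.2% of all genes. With a block for the replicate number, a pairing that no label gives, edgeR called 1 member higher and 3 lower, and 388 (3.46%) and 312 (2.78%) of all genes.

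**Figure D1:**
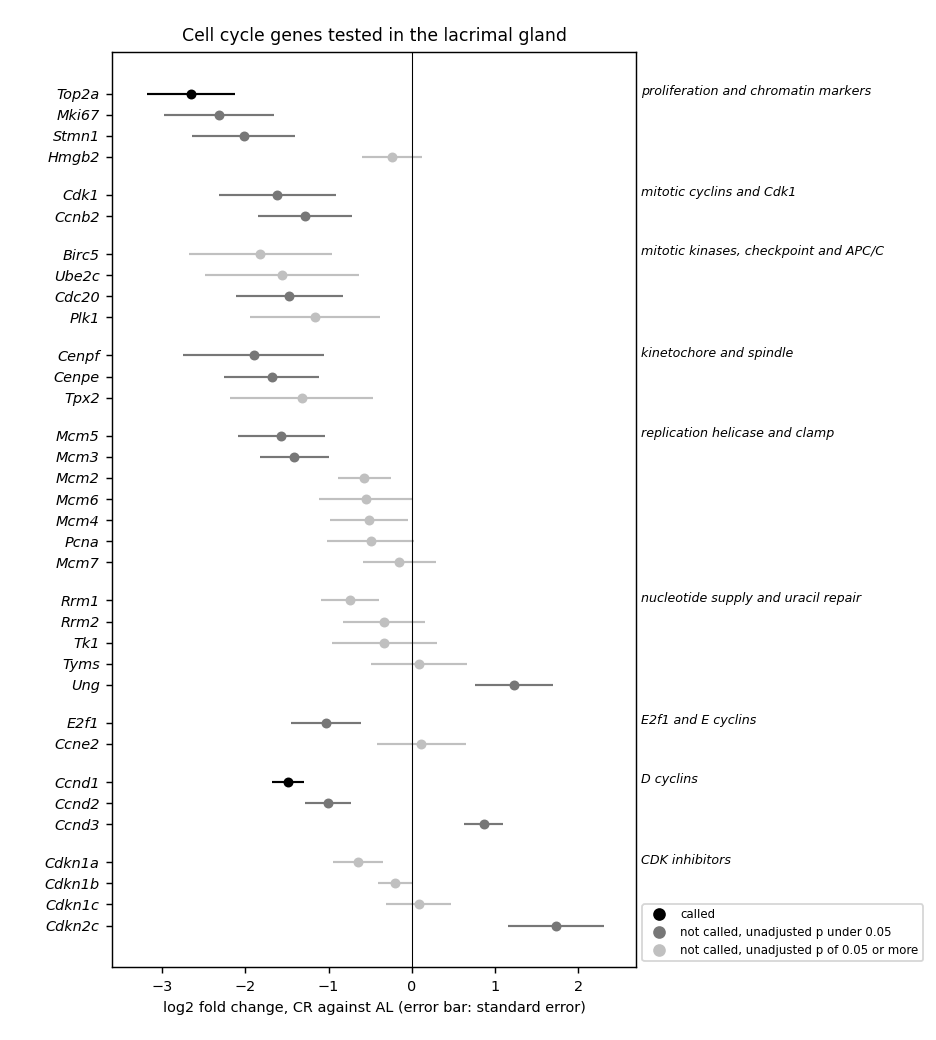
Log2 fold change of CR against AL (horizontal axis) for the 34 cell cycle genes tested, grouped by role, with bars of 1 standard error. Black points are the 2 genes called, dark grey points have an unadjusted p under 0.05 without being called, and all 9 mitosis genes, from Cdk1 down to Tpx2, lie left of 0.

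Of the 3 D cyclins only Ccnd1 was called, and their log2 fold changes had both signs. Ccnd1 (Gene ID 12443) encodes cyclin D1 and lies on chromosome 7 from 144929931 to 144939925 (GRCm38, GENCODE vM21). It measured 51.6, 51.2, 36.7 and 57.8 CPM in AL and 14.5, 15.9, 18.7 and 21.0 CPM in CR replicates 1 to 4. The lowest AL library was well above the highest CR library. Ccnd1 fell by 1.49 on the log2 scale (standard error 0.19, edgeR adjusted p = 0.00408), a level 2.81-fold lower in CR (49.3 ± 8.97 against 17.5 ± 2.90 CPM, SD, n = 4). It was called in each of the 8 fits that left out 1 library, with log2 fold changes from -1.62 to -1.41.

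Ccnd2, the gene of cyclin D2 on chromosome 6 from 127125162 to 127152193, measured 16.8, 20.5, 32.4 and 15.5 CPM in AL and 9.83, 8.76, 15.4 and 8.39 CPM in CR. AL replicate 3 and CR replicate 3 were the highest of their diets, and the highest CR library was just under the lowest AL library. The log2 fold change was -1.01 (standard error 0.28, edgeR adjusted p = 0.0844), which was not called, and the fit with the replicate block gave -0.99 and called it (edgeR adjusted p = 0.00491). Ccnd3, the gene of cyclin D3 on chromosome 17 from 47505051 to 47599691, had the opposite sign. It measured 15.1, 15.9, 22.1 and 17.1 CPM in AL and 29.1, 24.6, 47.7 and 26.4 CPM in CR, with the 2 diets apart and CR replicate 3 far above the others. Its log2 fold change was 0.86 (standard error 0.23, edgeR adjusted p = 0.0799), not called, and 0.83 with the replicate block, where it was called (edgeR adjusted p = 0.00900). Without CR replicate 4 it was also called, at 0.95 (edgeR adjusted p = 0.0372).

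As a share of the D cyclin CPM of each library, Ccnd3 made up 18.1, 18.2, 24.2 and 18.9% in AL and 54.5, 50, 58.3 and 47.3% in CR. Ccnd1 made up 61.8, 58.4, 40.2 and 64.0% in AL and 27.1, 32.2, 22.9 and 37.6% in CR. The most counted D cyclin was thus Ccnd1 in every AL library and Ccnd3 in every CR library. The summed D cyclin level was 88.2 ± 3.44 CPM in AL and 60.1 ± 14.7 CPM in CR (SD, n = 4), and CR replicate 3, at 81.8 CPM, came close to the lowest AL library at 83.5 CPM. The shares are descriptions of the same counts that the fold changes rest on.

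**Figure D2:**
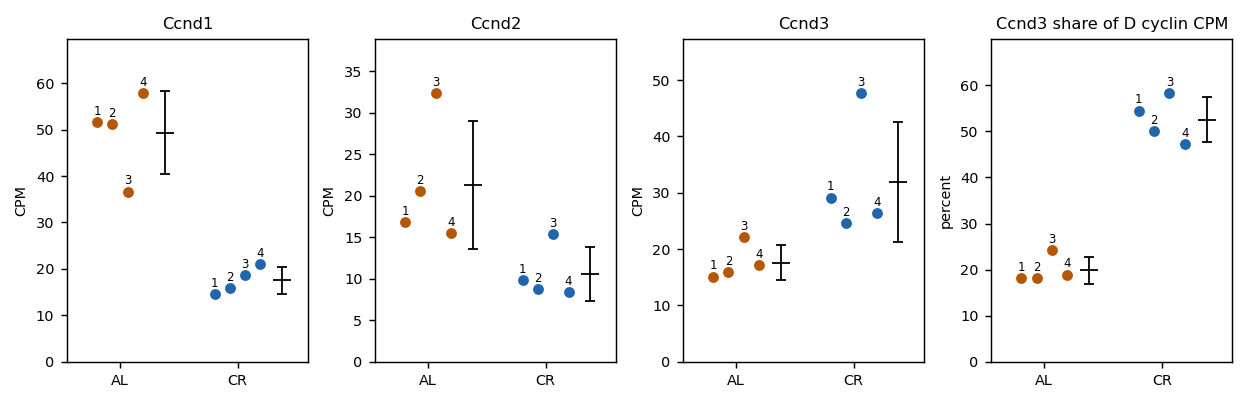
Level in CPM of the 3 D cyclin genes and the percent of their summed CPM taken by Ccnd3, for AL (orange) and CR (blue); numbers are replicates and bars show mean ± SD of 4 libraries. Ccnd1 and Ccnd2 lie lower and Ccnd3 higher in CR, with no overlap of the diets in any panel.

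Genes on the other strand end beside 2 of the D cyclins, and whether the authors counted by strand is not given in the sources used here. Bysl, a ribosome assembly gene at the end of Ccnd3, averaged 6.04 ± 1.17 CPM (SD, n = 4) in AL against 3.72 ± 0.853 in CR, the opposite direction to Ccnd3. Oraov1, annotated as LTO1 at the end of Ccnd1, averaged 3.96 CPM in AL and 3.02 CPM in CR. Pseudogene copies shared 1.26% of the 75-base windows in the last 600 bases of Ccnd3 and none of those of Ccnd1 and Ccnd2.

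When the mean log2 CPM of the parotid markers was added to the edgeR fit, the log2 fold change of Ccnd1 was -1.02 and was not called (adjusted p = 0.480). With the mean log2 CPM of the B cell markers in its place it was -1.71, also not called (edgeR adjusted p = 0.175). Over all genes these fits called 4 and 1, and since both scores differ between the diets their part in the result cannot be told apart from that of the diet.

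The CDK inhibitors had log2 fold changes of both signs, and none was called. Cdkn2c, the gene of the Cdk4 and Cdk6 inhibitor p18, measured 0.462, 0.245, 0.729 and 0.660 CPM in AL and 2.62, 2.55, 1.11 and 0.777 CPM in CR. The diets did not overlap, but the highest AL level, 0.729 CPM, was close to the lowest CR level, 0.777 CPM, and the gene had 145 counts in all libraries together. Its log2 fold change was 1.73 (standard error 0.57, edgeR adjusted p = 0.142). Cdkn1a, the gene of p21 and a target of p53, measured 5.32, 5.52, 7.07 and 4.01 CPM in AL and 2.48, 3.55, 5.02 and 2.89 CPM in CR (log2 fold change -0.65, standard error 0.30, edgeR adjusted p = 0.309), with overlap. Cdkn1b, the gene of p27 and the most counted of the 4, ranged from 21.4 to 32.8 CPM in AL and from 18.7 to 33.9 CPM in CR. Cdkn1c, the gene of p57, ranged from 1.16 to 3.62 CPM and from 2.07 to 4.11 CPM. The median log2 fold change of the 4 genes was -0.060.

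E2f1, the founding E2F factor, measured 7.55, 3.13, 2.84 and 3.96 CPM in AL and 3.11, 1.48, 1.24 and 2.67 CPM in CR. The highest CR library lay between AL libraries, and the log2 fold change of -1.04 was not called (standard error 0.42, edgeR adjusted p = 0.231) and was -0.64 without AL replicate 1. The E cyclins, which activate Cdk2 at the entry to S phase, overlapped between the diets. Ccne2 measured 2.77, 1.04, 1.17 and 0.964 CPM in AL and 1.98, 2.01, 1.86 and 0.555 CPM in CR (log2 fold change 0.12, standard error 0.53, edgeR adjusted p = 0.950). Ccne1 was too rare to test, with 0.364 to 0.920 CPM in AL and 0.124 to 0.944 CPM in CR.

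Among the S phase genes, 10 of 12 tested had a negative log2 fold change and none was called, with a median of -0.50. The replicative helicase Mcm2 to Mcm7 opens DNA ahead of the polymerases, and Pcna is the clamp that holds them. Mcm3, on chromosome 1 from 20802968 to 20820312 and with the E2F match shown above, measured 6.70, 2.09, 5.10 and 2.59 CPM in AL and 1.13, 1.72, 1.67 and 1.61 CPM in CR. The 4 CR libraries were close to each other and all below AL (log2 fold change -1.41, standard error 0.42, edgeR adjusted p = 0.108). Mcm5 measured 3.93, 1.10, 2.48 and 1.83 CPM in AL and 0.424, 0.592, 1.30 and 0.777 CPM in CR, with 1 CR library above the lowest AL library (-1.57, standard error 0.52, edgeR adjusted p = 0.143). The other subunits and Pcna had values nearer 0. Mcm2, Mcm4, Mcm6 and Pcna had log2 fold changes between -0.57 and -0.50, and their diets overlapped. Mcm7 measured 14.2, 5.46, 14.2 and 6.04 CPM in AL and 8.70, 11.8, 12.4 and 2.89 CPM in CR (-0.15, standard error 0.44, edgeR adjusted p = 0.915), and 17.98% of its end windows are shared with the copy Gm5487. Differences between the subunits were not tested.

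Nucleotide supply genes overlapped between the diets. Rrm1, the large subunit of ribonucleotide reductase, measured 5.01, 3.68, 4.30 and 2.44 CPM in AL and 1.91, 2.31, 1.67 and 3.28 CPM in CR (log2 fold change -0.74, standard error 0.35, edgeR adjusted p = 0.311). Its small subunit Rrm2, the thymidylate synthase gene Tyms and the thymidine kinase gene Tk1 had log2 fold changes of -0.33, 0.087 and -0.33. Ung, the uracil glycosylase that removes uracil from DNA, was the S phase member with the highest fold change. It measured 6.01, 2.58, 2.26 and 2.03 CPM in AL and 6.44, 14.2, 6.25 and 3.17 CPM in CR. AL replicate 1 lay within the CR range, and the log2 fold change of 1.23 was not called (standard error 0.47, edgeR adjusted p = 0.200) and was 0.73 without CR replicate 2.

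The mitosis genes were 17, of which 9 could be tested. All 9 had a negative log2 fold change, from -1.90 to -1.16 with a median of -1.56. The filter on low counts asks for a set level in 4 libraries, and 5 of the 9 reached it in all 4 AL and in fewer than 4 CR libraries, so the shared sign is in part set by the filter. With at least 10 counts asked of every library only Cdc20 was left (-1.46). At an unadjusted p under 0.05, 5 of the 9 were lower, where 8.1% of all genes were lower, and the filter bears on this count too. None of the 9 was called and in none were the diets apart. Cdk1 measured 5.39, 1.53, 1.82 and 2.13 CPM in AL and 0.141, 0.474, 0.557 and 2.28 CPM in CR. The library of CR replicate 4 exceeded 3 of the AL libraries, and the log2 fold change was -1.62 (standard error 0.70, edgeR adjusted p = 0.269). Without that library it was -2.75 and Cdk1 was called (edgeR adjusted p = 0.0305), and without AL replicate 1 it was -1.05 and not called (edgeR adjusted p = 0.574). Ccnb2, the gene of cyclin B2, a partner of Cdk1, measured 1.93, 1.23, 2.33 and 0.913 CPM in AL and 0.566, 0.355, 0.372 and 1.28 CPM in CR (-1.29, standard error 0.57, edgeR adjusted p = 0.274). Here too CR replicate 4 was the only CR library within the AL range.

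Of the genes for mitotic kinases, the checkpoint and the APC/C, Birc5, the gene of survivin, measured 4.24, 0.981, 2.7 and 1.37 CPM in AL and 0, 0.118, 0.867 and 1.55 CPM in CR (log2 fold change -1.82, standard error 0.86, edgeR adjusted p = 0.311). Cdc20, which activates the APC/C, measured 5.70, 0.736, 4.96 and 1.42 CPM in AL and 0.920, 0.770, 0.681 and 2.17 CPM in CR (-1.47, standard error 0.64, edgeR adjusted p = 0.272). Its AL libraries split into 2 high and 2 low values, and 3 of the 4 CR libraries were above the lowest AL library. The kinase gene Plk1 had the same split, with 4.47, 0.184, 4.88 and 1.57 CPM in AL and 0.424, 0.829, 0.929 and 2.67 CPM in CR (-1.16, standard error 0.78, edgeR adjusted p = 0.503). Ube2c, the ubiquitin conjugating enzyme of the APC/C, had a log2 fold change of -1.56.

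At the kinetochore, where chromosomes meet the spindle, Cenpe measured 5.62, 1.23, 1.53 and 2.69 CPM in AL and 0.495, 0.651, 0.681 and 1.55 CPM in CR (log2 fold change -1.68, standard error 0.57, edgeR adjusted p = 0.152). Cenpf measured 5.78, 1.10, 3.64 and 1.22 CPM in AL and 0, 0.355, 0.681 and 2 CPM in CR (-1.90, standard error 0.85, edgeR adjusted p = 0.283). In both genes only CR replicate 4 reached into the AL range. Tpx2, a spindle assembly factor that activates Aurora A, measured 1.16, 0.675, 4.30 and 0.609 CPM in AL and 0, 0.711, 0.619 and 1.28 CPM in CR (-1.32, standard error 0.86, edgeR adjusted p = 0.489), and AL replicate 3 stood alone. Without that library the log2 fold change of Tpx2 was -0.28 and that of Plk1 -0.74, and without AL replicate 1 that of Cenpe was -1.09. Without CR replicate 4 the values were -1.90 for Plk1, -2.76 for Birc5, -2.80 for Ube2c and -3.02 for Cenpf, none of them called.

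Of the other 8 mitosis genes, too rare to test, Ccna2 and Ccnb1, the genes of cyclins A2 and B1, had 0 counts in CR replicates 1 to 3. Ccna2 had 6, 4, 30 and 14 counts in AL replicates 1 to 4 and 12 in CR replicate 4, and Ccnb1 had 30, 2, 21 and 10 in AL and 10 in CR replicate 4. In a fit with no filter on low counts neither was called (edgeR adjusted p = 0.388 and 0.254). Copies of Ccnb1 share 27.25% of its end windows. Bub1, Aurkb and Kif11 had 11, 9 and 27 counts in the AL libraries together and 1, 1 and 9 in the CR libraries. Bub1b had 42 and 44, Aurka 14 and 18, and Kif20a 13 and 22, so these 3 showed no fewer counts in CR. The replication gene Gins2 had 14 and 7. The no-filter fit called none of the 10 rare members.

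The proliferation markers Top2a, Mki67 and Stmn1 had the 3 lowest fold changes of the 34 genes tested. Top2a (Gene ID 21973, chromosome 11, 98992943 to 99024189), the topoisomerase that untangles chromosomes before they part, measured 30.2, 7.54, 20.8 and 7.41 CPM in AL and 1.06, 1.66, 3.53 and 4.11 CPM in CR. All CR libraries were below all AL libraries, and AL replicates 1 and 3 were far above AL replicates 2 and 4. Top2a fell by 2.65 on the log2 scale (standard error 0.53, edgeR adjusted p = 0.0291), a level 6.29-fold lower in CR (16.5 ± 11.1 against 2.59 ± 1.46 CPM, SD, n = 4). It was not called without AL replicate 1 (log2 fold change -2.18, edgeR adjusted p = 0.0831), AL replicate 3 (-2.52, 0.0727) or any of the first 3 CR replicates (-2.40, -2.48 and -2.83, edgeR adjusted p = 0.0613, 0.117 and 0.0729). Nor was it called by limma voom (-2.33, adjusted p = 0.0672), by edgeR with robust dispersions (-2.65, 0.0577), or with the parotid score (-3.07, 0.443) or the B cell score (-2.65, 0.814) as a covariate.

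Mki67, the gene of the Ki-67 antigen on chromosome 7 from 135689784 to 135716361, measured 15.6, 3.37, 5.47 and 3.91 CPM in AL and 0.141, 0.947, 2.23 and 2.28 CPM in CR. AL replicate 1 stood far above every other library, and the diets did not overlap. The log2 fold change was -2.31 (standard error 0.66, edgeR adjusted p = 0.0974), not called, and ranged from -2.65 to -1.58 with 1 library left out. Stmn1, the gene of the microtubule destabilizer stathmin, measured 8.78, 1.59, 5.90 and 1.37 CPM in AL and 0.778, 1.72, 0.557 and 1.22 CPM in CR (-2.02, standard error 0.62, edgeR adjusted p = 0.116). AL replicates 2 and 4 lay among the CR libraries, and the copy Gm11223 shares 28.29% of its end windows. The chromatin protein gene Hmgb2, which many resting cells also express, measured 5.78, 5.83, 6.92 and 8.88 CPM in AL and 2.26, 8.23, 4.71 and 8 CPM in CR (-0.24, standard error 0.36, edgeR adjusted p = 0.814), and copies share 25.87% of its end windows.

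**Figure D3:**
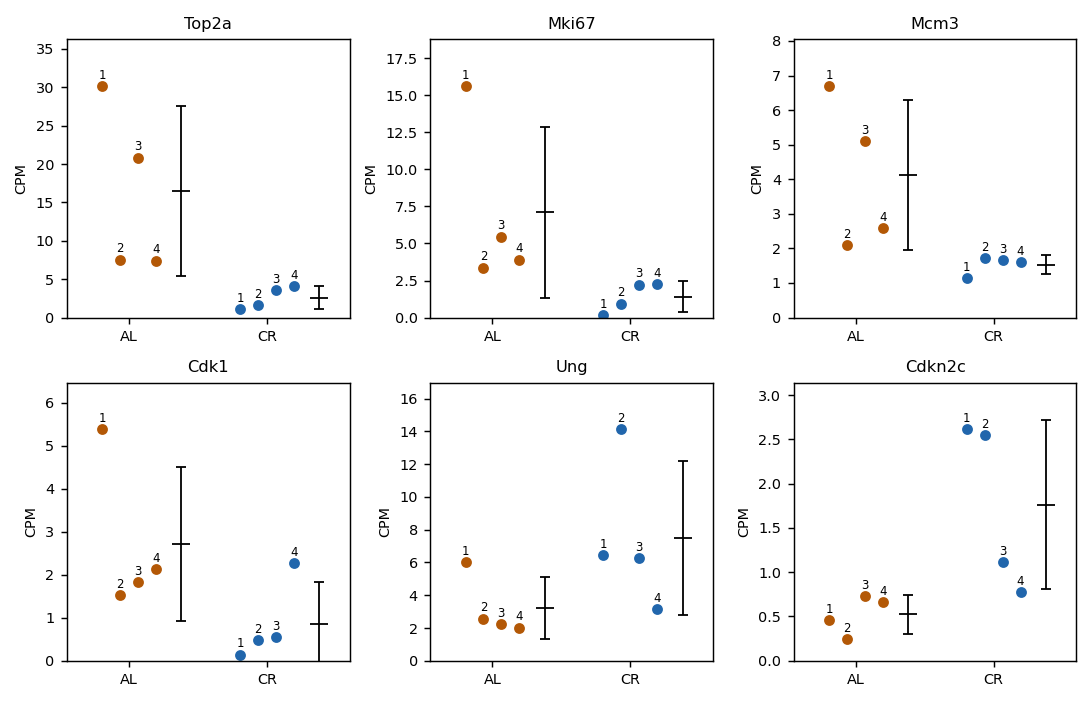
Level in CPM of Top2a, Mki67, Mcm3, Cdk1, Ung and Cdkn2c in each AL (orange) and CR (blue) library; numbers are replicates, bars show mean ± SD of 4 libraries, and a lower bar below 0 is not drawn. The diets do not overlap for Top2a, Mki67, Mcm3 and Cdkn2c, and CR replicate 4 of Cdk1 lies within the AL range.

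The same few libraries carried the high values of many of these genes. The summed CPM of the 17 mitosis genes was 42.5, 10.2, 32.9 and 14.9 in the AL libraries and 3.75, 5.33, 7.12 and 19.2 in the CR libraries. CR replicate 4 thus exceeded AL replicates 2 and 4. AL replicate 1 was the highest of its diet for 10 of the 17 genes and AL replicate 3 for 5, and CR replicate 4 was the highest of its diet for 13. The 13 S phase genes summed to 70.5, 29.1, 42.9 and 33.4 CPM in AL and 30.3, 49.3, 33.9 and 31.0 CPM in CR, so AL replicate 1 stood out again but the order of the CR libraries was another.

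Marker sums of B cells, leukocytes in general, T cells and macrophages averaged lower in CR, as did those of the mitosis genes and of the myoepithelial cells that surround the acini. The summed CPM of 6 B cell markers was 5.01, 12.1, 11.7 and 2.54 in AL and 0.424, 0.592, 0.805 and 1.28 in CR, with no overlap. Of these 6 only Cd22 could be tested, and it was not called (log2 fold change -2.99, edgeR adjusted p = 0.138), though in the fit with no filter the B cell marker Ms4a1 had -3.55 (edgeR adjusted p = 0.00806). Cd79a was at 0 in all libraries but AL replicate 2. The 4 pan-leukocyte markers summed to 39.2, 61.0, 133 and 57.6 CPM in AL and 37.1, 20.7, 41.0 and 36.5 CPM in CR, and the 6 macrophage markers to between 83.0 and 239 CPM in AL and between 53 and 101 CPM in CR. The 6 T cell markers summed to between 1.85 and 12.5 CPM in AL and between 1.06 and 2.13 CPM in CR. The 6 myoepithelial markers summed to between 81.0 and 127 CPM in AL and between 45.6 and 84.2 CPM in CR, and the 5 plasma cell markers to between 76.0 and 92.4 CPM in AL and between 58.8 and 109 CPM in CR. Most of the plasma cell sum was Derl3 (log2 fold change 0.21), while Jchain (-1.18), Mzb1 (-1.65) and Pou2af1 (-0.77) had lower means in CR, and none of the 4 was called. Within the AL diet the order differed, because AL replicate 1 had the highest mitosis sum and the lowest pan-leukocyte sum, while AL replicate 2 had the lowest mitosis sum and the highest B cell sum. Within the CR diet the B cell and mitosis sums had the same order, with CR replicate 4 highest in both. The CR B cell sums rest on few counts, however. Cd22 gave 0.833 of the 1.28 CPM of CR replicate 4, while Ms4a1 was highest in CR replicate 3, at 0.372 CPM. The 4 fibroblast markers summed to between 100.6 and 155 CPM in AL and between 112 and 174 CPM in CR, with log2 fold changes of 0.22 for Dcn, -0.65 for Pdgfra, -0.98 for Lum and -1.04 for Dpt, none called. Other marker sums were higher in CR without overlap. The lacrimal gland markers summed to between 12216 and 28941 CPM in AL and between 36945 and 83205 CPM in CR, nearly all of it Car6. This sum therefore describes Car6 and not the list. Of its 7 genes 5 had a positive log2 fold change and 2 a negative one, Ltf (-1.16) and Pax6 (-0.68). The sums lay between 4.37 and 11.0 CPM in AL and between 17.4 and 55.2 CPM in CR for 4 adipocyte markers, of which Fabp4 was called, between 146 and 189 and between 199.9 and 268 CPM for 5 markers of duct epithelium, and between 8.32 and 12.7 and between 12.9 and 16.2 CPM for 4 endothelial markers. Of the 4 duct markers tested, only Krt18 (log2 fold change 0.66, not called) had diets apart. Positive values were found for 3 of these 4, and Krt7 had -0.22. The part of these cells in the result was not tested beyond the fit with the B cell score.

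**Figure D4:**
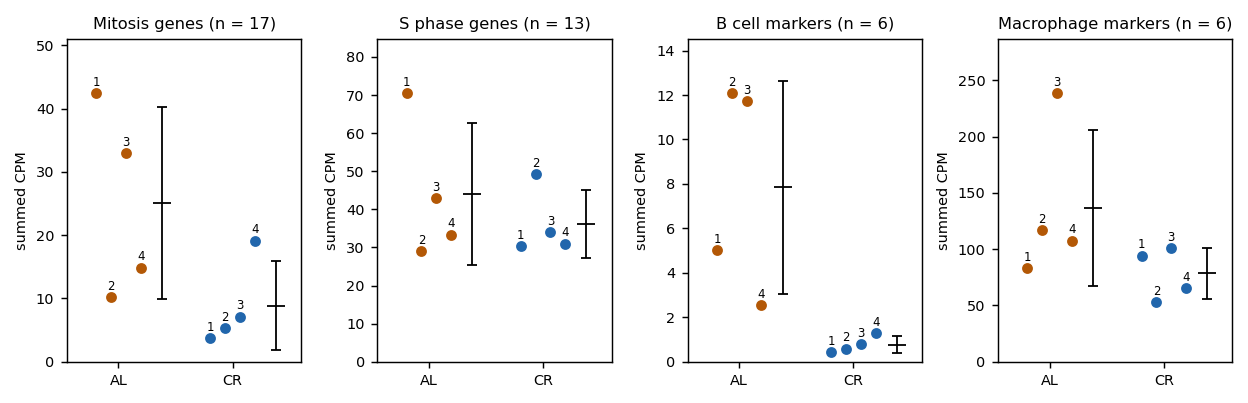
Summed CPM of the 17 mitosis genes, the 13 S phase genes, 6 B cell markers and 6 macrophage markers in each AL (orange) and CR (blue) library; numbers are replicates and bars show mean ± SD of 4 libraries. Mitosis genes were highest in AL replicates 1 and 3 and in CR replicate 4. B cell markers were highest in AL replicates 2 and 3 and in CR replicate 4. The 4 CR libraries had the same order in both sums, though the CR B cell sums rest on few counts.

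**Figure D5:**
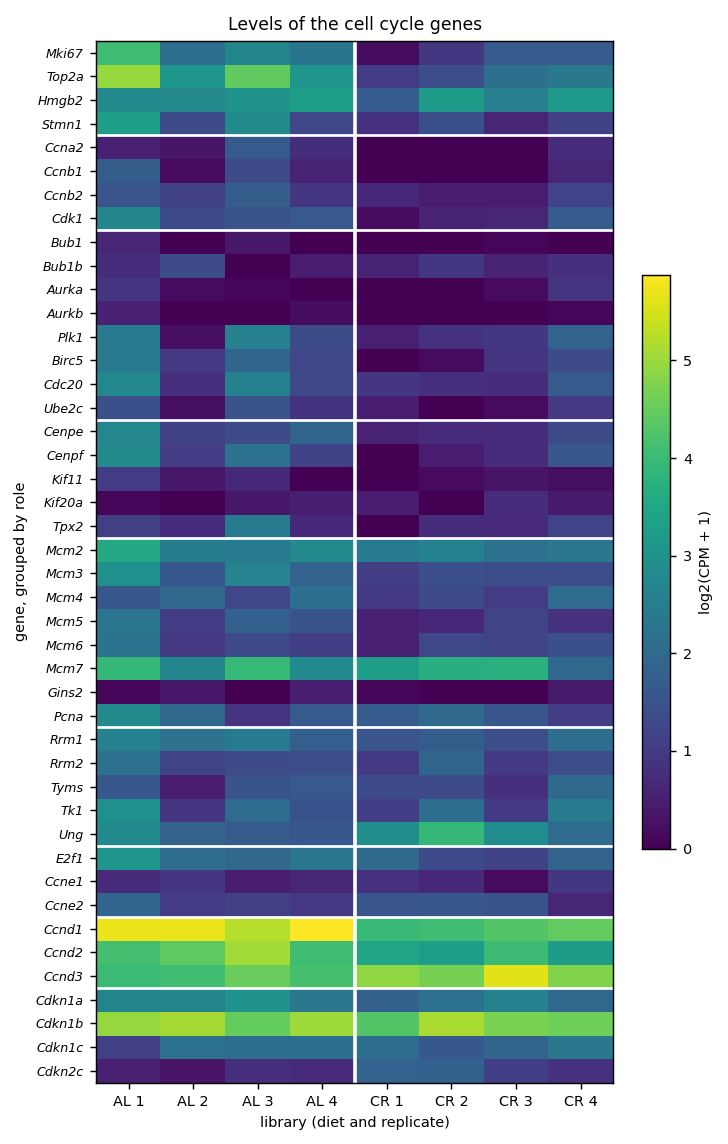
Level of all 44 genes as log2(CPM + 1) in the 8 libraries, grouped by role from proliferation markers at the top to CDK inhibitors at the bottom. Ccnd1, Ccnd2, Ccnd3 and Cdkn1b are among the brightest rows, and the mitosis genes are darkest in CR replicates 1 to 3.

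Beyond these members, 158 further cell cycle genes were looked at in 4 lists, and 110 of them were tested. Only Tfdp2, the gene of DP2, which pairs with E2F factors to bind DNA, was called, 1 of 110 against 1.2% of all genes higher in CR. It measured 7.63, 10.7, 8.60 and 10.4 CPM in AL and 17.9, 22.6, 20.9 and 13.8 CPM in CR and rose by 1.01 on the log2 scale (standard error 0.21, edgeR adjusted p = 0.0335). No gene of the 4 lists was called lower. The 8 fits that left out 1 library gave Tfdp2 log2 fold changes from 0.91 to 1.13, and it was called only in the fit without CR replicate 4 (1.13, edgeR adjusted p = 0.00632). In the other 7 the edgeR adjusted p lay between 0.0539 (without AL replicate 4) and 0.117 (without CR replicate 2), and the call was also lost with the parotid score (0.96, edgeR adjusted p = 0.549) and the B cell score (1.01, 0.916). With the replicate block edgeR called 6 of the 110 genes, against 6.24% of all genes, among them Spc25 (-1.49, adjusted p = 0.0373), E2f2 (-2.13, 0.0305) and Tob2 (0.81, 0.0161).

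Of 47 further G2 and mitosis genes, 24 were tested after the same filter, and 23 of these had a negative log2 fold change, with a median of -0.81. At an unadjusted p under 0.05, 7 were found, all lower in CR, where 8.1% of all genes were lower. How many passed the filter through the AL libraries alone was not counted, so the shared sign and the 7 may in part be set by it. Spc25, a subunit of the Ndc80 kinetochore complex, measured 10.6, 5.34, 11.8 and 4.16 CPM in AL and 2.97, 2.55, 1.61 and 3.44 CPM in CR (-1.59, standard error 0.38, edgeR adjusted p = 0.0558). Prc1, which bundles the central spindle, measured 10.1, 1.53, 5.39 and 1.83 CPM in AL and 0.141, 0.355, 0 and 1.39 CPM in CR (-3.25, standard error 0.89, edgeR adjusted p = 0.0837). The diets did not overlap for either, and both were called without CR replicate 4 (-1.74 and -4.73, edgeR adjusted p = 0.0287 and 0.00996), Spc25 also without AL replicate 4 (-1.81, edgeR adjusted p = 0.0352). Of 34 further replication genes, 17 had a negative and 17 a positive log2 fold change, with a median of -0.019. Of these, 3 had an unadjusted p under 0.05, as did 16.7% of all genes in either direction.

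Of 30 genes of CDK, Rb and E2F control, the median log2 fold change was -0.21. E2f2 measured 5.01, 3.31, 4.23 and 2.28 CPM in AL and 1.91, 0.474, 0.248 and 1.17 CPM in CR (-1.96, standard error 0.55, edgeR adjusted p = 0.0917). Pkmyt1, the gene of a kinase that holds Cdk1 inactive, measured between 1.78 and 4.55 CPM in AL and between 1.17 and 1.42 CPM in CR (-0.98, edgeR adjusted p = 0.256, and -0.57 without AL replicate 1). Both lay below AL in every CR library. Of 22 p53 targets and antiproliferative genes, 4 had an unadjusted p under 0.05, all higher in CR, where 8.62% of all genes were higher at that threshold and 16.7% passed in either direction, and the median over the list was 0.098. Sesn1, a p53 and FoxO target that restrains mTORC1, measured 1.31, 1.23, 1.46 and 2.44 CPM in AL and 3.68, 6.81, 3.41 and 2.94 CPM in CR (1.37, standard error 0.39, edgeR adjusted p = 0.0917), and without CR replicate 4 it was called (1.51, edgeR adjusted p = 0.0473). Tob2, an antiproliferative gene of the BTG family, measured 19.2, 21.8, 12.8 and 28.6 CPM in AL and 30.4, 37.0, 32.9 and 39.8 CPM in CR (0.76, standard error 0.23, edgeR adjusted p = 0.108). Every CR library exceeded every AL library in both.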

How the data were processed

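Total RNA of whole LGs from 4 AL and 4 CR mice was made into libraries with an oligo(dT)-primed 3′ kit and read as single 75-base reads. The authors used cutadapt for trimming, STAR for alignment to mm10 and HTSeq, on the ROSALIND platform, for counting, and deposited the raw counts. Tool versions and the strand setting of the counting are not given in the sources used here. They also deposited log2 values (counts divided by the RLE size factor, plus 1), which were recomputed with a largest difference of 0.000124 and not used further.

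Of 24557 rows, 5 repeated symbols were dropped, and 16735 of the remaining 24552 genes had a count. The comparison of CR with AL used edgeR 4.0.16 under R 4.3.3, with RLE factors, filterByExpr (11211 genes) and quasi-likelihood F tests, and p-values were adjusted by Benjamini-Hochberg over all genes tested. The thresholds for a call were those of the study, an adjusted p below 0.05 and at least a 1.5-fold change. Standard errors were taken as the size of the log2 fold change over the root of its F value, and the biological coefficient of variation was 34.7%. On simulated data with 195 changed genes tested among 11211, calls reached 84 of 89 genes changed 4-fold and 25 of 106 changed by a factor of 2, with 4 false calls.

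The members and lists were chosen with earlier results of these data known. Values are given for members called, with an unadjusted p under 0.05, without overlap of the diets, or with the highest or lowest fold change of their role. Of the further lists, genes called, or without overlap at an unadjusted p under 0.05, are named.

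Replicate numbers come from the titles. No label pairs the mice of the diets. The deviations of same-numbered libraries from their diet means correlated at 0.208, 0.114, 0.298 and 0.535 over genes, all above 0.1. AL replicate 3 correlated more with a CR library of another number (0.408). The numbers were treated as pairs in a second fit with a replicate block, so its calls rest on a pairing taken from these same data. The main fit has no block. Positions come from GENCODE vM21 on GRCm38 and promoters from RefSeq on GRCm38.p6. Windows of 75 bases shared with other genes were sought in the last 600 bases of each gene.

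Alternatives were upper-quartile or TMM factors, leaving out the 50 most counted genes, DESeq2 1.42.0, limma 3.58.1 voom with sample weights, robust dispersions, no filter, a minimum of 10 counts in each library, no threshold on the fold change, the replicate block, the mean log2 CPM of parotid or of B cell markers as a covariate, and leaving out each library.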

Additional observations from a re-analysis of the deposited data

Results flagged for a closer look

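In 68 groups of 4 libraries, 1 for each tested gene and diet, 9 held a library far from the other 3, where Dixon's 95% limit flags about 1 in 20 groups by chance. AL replicate 1 was the distant library for 5 genes. It was the highest of its diet for Mki67 (15.6 CPM), Cdk1 (5.39 CPM), Ung (6.01 CPM) and Ccne2 (2.77 CPM) and the lowest for Cdkn1c (1.16 CPM). CR replicate 4 was the highest CR library for Cdc20, at 2.17 CPM, and the lowest for Ccne2, at 0.555 CPM. AL replicate 3 was the highest AL library for Tpx2, at 4.30 CPM, and AL replicate 2 the lowest for Tyms, at 0.368 CPM.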

How the results depend on the processing

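Ccnd1 remained called under all alternatives but the parotid score (-1.02) and the B cell score (-1.71) as covariates. Over the alternatives the log2 fold change of Ccnd2 ranged from -1.24 to -0.32 and that of Ccnd3 from 0.61 to 1.21. The median log2 fold change of the members stayed negative throughout, at -0.50 with at least 10 counts in every library, -1.19 with the parotid score and -1.0 to -0.65 with 1 library left out. TMM and upper-quartile factors, leaving out the 50 most counted genes and dropping the fold-change threshold kept the counts of members called, and the first 3 kept 2 members above and 5 below without overlap. Members called higher and lower, all genes called higher and lower, and genes of the further lists called numbered 1, 6, 385, 317 and 7 by DESeq2, 1, 1, 237, 160 and 2 by limma voom, 1, 4, 271, 165 and 3 with no filter, 0, 0, 4, 0 and 0 with the parotid score and 0, 0, 0, 1 and 0 with the B cell score. With robust dispersions 0 members were higher and 1 lower, 119 and 86 of all genes, and 2 genes of the further lists were called. The replicate block gave 1 member higher, 388 and 312 of all genes and 6 of the further lists, and changed no other call of a gene named here than those given above. With 1 library left out the ranges were 0 to 1 and 1 to 3 members, 35 to 418 and 24 to 239 of all genes and 0 to 7 of the further lists, the highest counts without CR replicate 4 (418 and 239) and the lowest without AL replicate 2 (35 higher) or CR replicate 2 (24 lower).

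Log2 fold changes of uncalled members changed sign in 26 cases. By limma voom these were Plk1 (0.13), Mcm7 (0.24), Tk1 (0.10) and Cdkn1c (-0.029), with the parotid score Hmgb2 (0.20), Mcm4 (0.61), Ung (-0.88) and Ccne2 (-1.5), and with the B cell score Tpx2 (0.53), Tyms (-0.73) and Ccne2 (-0.53). The other 15 came from leaving out 1 library, where the log2 fold changes ranged from -0.45 (without CR replicate 2) to 0.029 (CR replicate 1) for Hmgb2, from -0.76 (CR replicate 4) to 0.054 (AL replicate 1) for Mcm6, from -0.80 (AL replicate 3) to 0.083 (AL replicate 1) for Pcna and from -0.73 (CR replicate 2) to 0.082 (AL replicate 1) for Rrm2. They ranged from -0.74 (CR replicate 4) to 0.36 (AL replicate 1) for Tk1, from -0.36 (AL replicate 2) to 0.14 (CR replicate 4) for Mcm7, from -0.35 (CR replicate 4) to 0.33 (CR replicate 3) for Tyms, from -0.053 (AL replicate 4) to 0.60 (AL replicate 1) for Ccne2 and from -0.17 (AL replicate 1) to 0.23 (CR replicate 2) for Cdkn1c. The cause was not tested. DESeq2 also called Mki67 (adjusted p = 0.0061), Stmn1 (0.0176), Mcm3 (0.0276), Ccnd2 (0.0208) and Ccnd3 (0.0213). Depth limits the mitosis genes most, since 8 of 17 were too rare to test.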
